A study of Mus musculus with 6 samples.

Results

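Bone morphogenetic proteins (BMPs), inhibins and activins are secreted dimers of the transforming growth factor beta family. The genes described here are 10 members of that signalling system: the ligands Bmp2, Bmp4 and Bmp7, the type I receptors Bmpr1a and Bmpr1b, the subunits Inha, Inhba and Inhbb, and the BMP-responsive genes Id1 and Id3. They were chosen by symbol from the 48709 genes of the count table, all 10 had an Ensembl identifier there, and all 10 were among the 20167 genes that passed the expression filter. RNA came from ovaries of 13.5 days post coitum (dpc) wild type CD1 mouse embryos, pooled from more than one dam per library. The dams were gavaged from 10.5 dpc, 4 times a day at intervals of 3 h, either with ethanol (control, 3 libraries) or with acetaminophen (APAP, 30 mg/kg per day) alternating with ibuprofen (IBU, 15 mg/kg per day; APAP+IBU, 3 libraries). The exposed libraries received both drugs, so the effect of one and of the other cannot be told apart.

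A BMP dimer brings together type I and type II receptors, which phosphorylate SMAD1, SMAD5 and SMAD9; these enter the nucleus with SMAD4 and switch on genes such as Id1 and Id3. The Id proteins bind basic helix-loop-helix transcription factors and keep them off DNA. The alpha subunit Inha pairs with a beta subunit (Inhba or Inhbb) to form inhibin, while dimers of beta subunits form activin, which signals through other receptors and SMAD2 and SMAD3 and is bound by follistatin (Fst). In the fetal ovary Bmp2 and Fst are made by somatic cells, and BMP signals are known to act on germ cells that enter meiosis.

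The 6 libraries held between 37811968 and 48954631 counts, and the counts of the 10 genes ran from 62 to 13043 reads per library. The ovarian somatic marker list (8 genes, of which Bmp2 is one) summed to between 812 and 1090 CPM (read counts scaled to the effective library size) and the germ cell list (8 genes) to between 1340 and 1710 CPM, while the granulosa marker Foxl2 was low, from 0.944 to 8.16 CPM. Replicate 3 of each group stood apart: a list of 20 liver genes reached a sum of 2220 CPM there in control and 3610 CPM in APAP+IBU ovaries, where replicates 1 and 2 had 212 to 603 CPM. Control replicate 2 had 9.37 CPM over 4 Y-linked genes, against 2.26 to 2.86 CPM elsewhere. A list of 15 spermatid genes summed to 53.8 to 172 CPM in controls and 4.13 to 10 CPM after exposure. Because of the liver genes, fold changes are given for all 6 libraries and for replicates 1 and 2 of each group. Those replicates still include control replicate 1, the highest in spermatid genes (172 CPM), and control replicate 2, the highest in Y-linked genes. They also differ in a list of 11 erythroid genes, which summed to 7060 and 17200 CPM in controls and 3190 and 5440 CPM after exposure. In replicate 3 that list summed to 11000 CPM in control and 10200 CPM in APAP+IBU ovaries.

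The levels of the 10 genes covered about 2 orders of magnitude once read counts were divided by exon length. Per kilobase of annotated exon, Id3 had the highest mean level, 49.5 ± 15.9 CPM per kb (SD, n = 6), and Inhba the lowest, 0.419 ± 0.156. Between them came Bmpr1a (36.7 ± 5.63), Id1 (29 ± 12.4), Inha (19.2 ± 5.86), Bmp2 (9.81 ± 1.47), Bmp7 (8.66 ± 0.933), Inhbb (6.57 ± 1.13), Bmp4 (4.75 ± 0.768) and Bmpr1b (1.46 ± 0.291), all in CPM per kb. Neighbours from Id3 down to Bmp4 had overlapping ranges over the libraries, and only the steps from Bmp4 to Bmpr1b and from Bmpr1b to Inhba were free of overlap. Within a library the order was kept more often than the ranges show: Id1 was above Inha, Inha above Bmp2, Bmp7 above Inhbb, and Inhbb above Bmp4 in 6 of 6 libraries, while Id3 was above Bmpr1a in 5 and Bmpr1a above Id1 in 4.

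**Figure D1:**
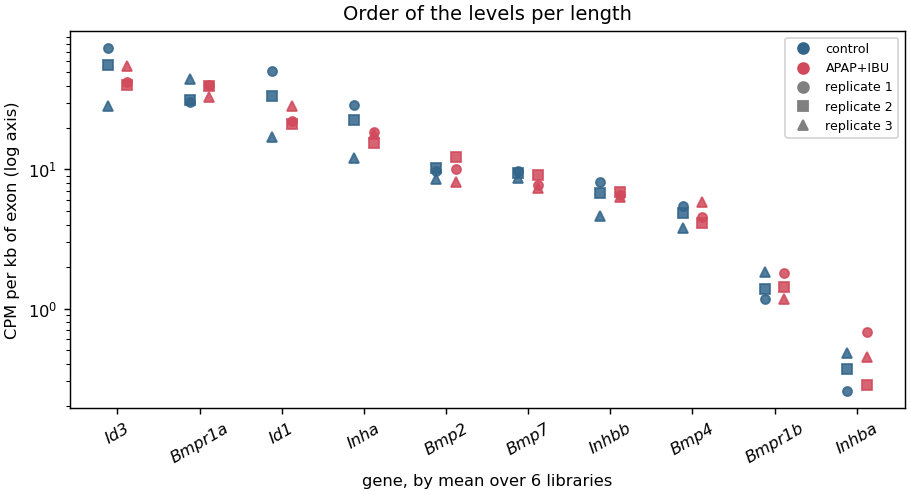
CPM per kilobase of exon (log axis) for each of the 10 genes in each library, ordered by the mean over 6 libraries; colour gives the group and symbol the replicate. Bmpr1b and Inhba sit below the range of all other genes, and the 3 control points of Id1, Id3 and Inha are spread more widely than the 3 exposed points.

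Of the 2 receptors, Bmpr1a was thus the abundant one, 22.6 to 28.4 times the level of Bmpr1b per kb. Of the beta subunits, Inhbb exceeded Inhba by 9.64 to 32.1 times in each library. The windows of 250 bases before the RefSeq start of these 2 paralogous genes (GRCm38.p6) are printed here. Their products are alternative partners of Inha, while their RNA levels lay far apart. Inhba, chr13:16011601-16011850 on the plus strand, and Inhbb, chr1:119422249-119422498 on the minus strand, both end directly at the annotated gene start. Capitals mark matches on either strand to the letters of a core promoter motif, TATAAA, and to the letters bound by Sp1, GGGCGG, which cannot overlap each other. Matches were counted anywhere in the window, whatever their distance from the start, and their use as promoter elements was not tested.
Inhba: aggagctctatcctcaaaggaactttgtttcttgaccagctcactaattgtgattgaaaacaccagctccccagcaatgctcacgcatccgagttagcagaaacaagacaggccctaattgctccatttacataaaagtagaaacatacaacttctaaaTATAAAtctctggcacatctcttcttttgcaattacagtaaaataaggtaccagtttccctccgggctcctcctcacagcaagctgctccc
Inhbb: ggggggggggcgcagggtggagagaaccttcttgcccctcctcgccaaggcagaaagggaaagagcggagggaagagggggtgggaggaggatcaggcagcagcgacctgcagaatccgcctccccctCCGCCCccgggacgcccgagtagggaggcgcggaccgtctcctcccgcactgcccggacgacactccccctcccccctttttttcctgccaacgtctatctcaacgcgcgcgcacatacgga
The Inhba window had 43.2% GC, 3 CpG dinucleotides and 1 match to TATAAA, which 12.4% of all 32851 RefSeq windows hold. The Inhbb window had 68% GC, 21 CpG, more than 83.7% of all windows, and 1 match to GGGCGG, which 32.7% hold. Neither window held CAGAC, the SMAD-binding letters, which are found in 42.2% of windows. Of the 10 genes, 7 had an entry; Bmp2, Bmp7 and Id1 had none.

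With all 6 libraries, no difference between control and APAP+IBU ovaries passed the test in any of the 10 genes. In the quasi-likelihood test of edgeR, adjusted by Benjamini-Hochberg over all 20167 genes, 0 of 10 fell below an adjusted p of 0.05, and 0 of 10 had an unadjusted p under 0.05. This edgeR test called 0 of all tested genes (0%), and 1254 of them (6.22%) had an unadjusted p under 0.05. DESeq2 called 0 of the 10, and 192 of all genes to which it gave an adjusted p (0.953%). The smallest adjusted p among the 10 was 0.699. Their median log2 fold change was 0.01, with 5 above and 5 below 0, beside a median of -0.01 over all tested genes. In no gene of the 10 did the exposed libraries all lie above or all below the controls, whereas 4.78% of all tested genes lay wholly higher and 5.92% wholly lower. In RNA of whole ovaries, fewer cells of a type and less RNA per cell cannot be told apart, so each value is a level in the pooled tissue.

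**Figure D2:**
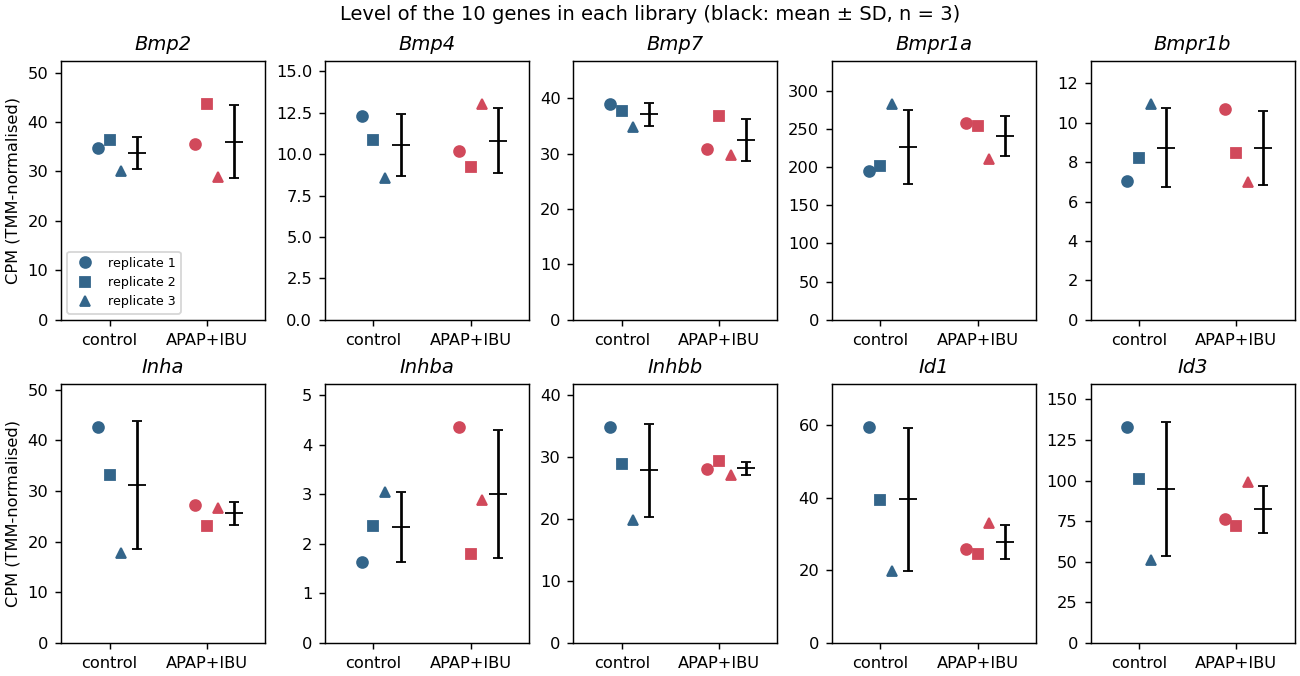
CPM of each gene in the 3 control (blue) and 3 APAP+IBU (red) libraries, with the replicate given by the symbol and the group mean ± SD (n = 3) in black; each vertical axis starts at 0. The groups overlap in all 10 panels, and for Id1, Id3 and Inha control replicate 1 is the highest library and control replicate 3 the lowest.

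Among the BMP ligands, Bmp2 (ENSMUSG00000027358, chromosome 2 of GRCm38 from 133552159 to 133562885), an ovarian somatic ligand, had 34.7, 36.3 and 30.1 CPM in control replicates 1, 2 and 3, and 35.5, 43.6 and 28.9 CPM in APAP+IBU replicates 1, 2 and 3. The exposed libraries thus held both the highest and the lowest value. The log2 fold change of Bmp2 was 0.10 (standard error 0.18, 95% interval -0.31 to 0.51, adjusted p = 0.858 in edgeR's test). In replicates 1 and 2 it was 0.18 (standard error 0.12, adjusted p = 0.324).

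Bmp7 (ENSMUSG00000008999, chromosome 2 from 172868012 to 172940321), a ligand also known from mesonephric tubules, had 38.9, 37.7 and 34.8 CPM in controls and 30.9, 36.8 and 29.8 CPM after exposure. One exposed library, replicate 2, lay within the control range and the other 2 below it, giving a log2 fold change of -0.19 (standard error 0.14, 95% interval -0.51 to 0.13, adjusted p = 0.7 in edgeR's test). Leaving out replicate 3 changed little, with -0.16 (adjusted p = 0.351). The list of 10 mesonephric genes summed to 492 to 535 CPM in controls and 489 to 531 CPM in exposed libraries. Most of each sum came from Wt1 (251 to 301 CPM) and Emx2 (124 to 177 CPM). Pax2 was wholly lower after exposure, with 3.04 to 4.58 CPM in controls and 2.21 to 2.66 CPM in exposed libraries. It was the only gene of the list without overlap. The part of mesonephric cells in the Bmp7 values was not tested. Bmp4 (ENSMUSG00000021835, chromosome 14 from 46383520 to 46390669), a ligand needed earlier for germ cell specification, ranged from 8.55 to 12.3 CPM in controls and from 9.24 to 13 CPM after exposure, the highest value being that of APAP+IBU replicate 3. Its log2 fold change was 0.04 (standard error 0.21, 95% interval -0.46 to 0.53, adjusted p = 0.96 in edgeR's test) with all libraries and -0.23 (adjusted p = 0.345) with replicates 1 and 2.

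The balance of the ligands was also read as a ratio within each library, which no scaling of libraries can change. Bmp2 over Bmp7, per kb, was 1.01, 1.09 and 0.977 in controls and 1.30, 1.34 and 1.10 after exposure, so every exposed library lay above every control. The mean log2 ratio differed by 0.28, with p = 0.1 by exact permutation (two-sided), the smallest p that 3 libraries against 3 allow (0.35 after adjustment over the 7 ratios computed, which were chosen after the levels had been seen). With length and GC correction the difference was 0.28, but the groups were no longer wholly apart (exact permutation p = 0.2). Without correction it was 0.33 in replicates 1 and 2. Bmp2 over Bmp4 ranged from 1.41 to 2.99, with both ends in exposed libraries; the log2 difference was 0.045 over all libraries and 0.40 in replicates 1 and 2.

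The type I receptor Bmpr1a (ENSMUSG00000021796, chromosome 14 from 34410734 to 34503341), the main BMP receptor here by level, had 195, 201 and 282 CPM in control replicates 1, 2 and 3 and 257, 254 and 211 CPM in APAP+IBU replicates 1, 2 and 3. Control replicate 3 was the highest library of all, above each exposed one, while control replicates 1 and 2 were the lowest. With all 6 libraries the log2 fold change was 0.09 (standard error 0.17, 95% interval -0.32 to 0.49, adjusted p = 0.869 in edgeR's test). With replicates 1 and 2 only, Bmpr1a rose by 0.39 (standard error 0.09, adjusted p = 0.0184). Bmpr1b (ENSMUSG00000052430, chromosome 3 from 141837136 to 142169425), the rarer receptor, spanned 7.03 to 10.9 CPM in controls and 6.98 to 10.7 CPM after exposure. Its log2 fold change was near 0 (-0.0040 ± 0.24 standard error, adjusted p = 0.996 by edgeR). In replicates 1 and 2 it was 0.35 (adjusted p = 0.238). The ratio of Bmpr1a to Bmpr1b did not separate the groups (difference of 0.11 in log2, exact permutation p = 0.4, and 0.045 in replicates 1 and 2).

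The alpha subunit gene Inha (ENSMUSG00000032968, chromosome 1 from 75507077 to 75510366) had 42.6, 33.3 and 17.7 CPM in control replicates 1, 2 and 3 and 27.3, 23 and 26.6 CPM in the 3 exposed libraries. The controls thus spread over more than the whole exposed range, with replicates 1 and 2 above and replicate 3 below all exposed libraries. Its log2 fold change was -0.28 (standard error 0.29, 95% interval -0.95 to 0.38, adjusted p = 0.758 in edgeR's test) over all libraries. In replicates 1 and 2 alone, Inha fell by 0.57 on the log2 scale (standard error 0.16, adjusted p = 0.0358). Inha is also a gene of cells of the testis and the adrenal gland. The list of 10 Sertoli and Leydig genes summed to 75.2, 90.7 and 40.2 CPM in controls and 52.4, 47 and 45.3 CPM after exposure. Of its genes, 2 were wholly lower after exposure (Cyp17a1 and Ptgds) and 0 wholly higher. The Leydig marker Insl3 stayed at or under 0.236 CPM. Other genes of the list were higher, with Hsd3b1 at 8.63 to 22.8 CPM and Star at 6.25 to 10.1 CPM. The highest was Aard, with 31.2, 26.7 and 11.1 CPM in controls and 17.4, 14.8 and 14.9 CPM after exposure. Sox9 had 8.42, 10.6 and 5.37 CPM in controls and 6.15, 5.98 and 5.99 CPM after exposure. Amh had 2.49, 2.6 and 0.253 CPM against 0.769, 0.742 and 0.495 CPM. Dhh had 3.23, 3.69 and 1.13 CPM against 1.24, 1.31 and 0.625 CPM. Control replicates 1 and 2 were the highest libraries for Aard, Sox9, Amh and Dhh, as for Inha, but not for Hsd3b1 or Insl3. Cyp11a1 was at 1.7 to 7.15 CPM and Cyp17a1 at 1.59 to 5.09 CPM. The list of 8 adrenal cortex genes summed to 224, 191 and 141 CPM in controls and 156, 176 and 160 CPM after exposure, nearly all of it Nr5a1, which ovarian somatic cells express too (125 to 207 CPM). The part of these cells in the Inha values was not tested.

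The beta subunit gene Inhbb (ENSMUSG00000037035, chromosome 1 from 119415465 to 119422248) had 34.7, 28.9 and 19.8 CPM in controls and 28, 29.3 and 27.1 CPM after exposure. The exposed libraries lay close together inside the control range. The log2 fold change of Inhbb was 0.02 (95% interval -0.46 to 0.49, standard error 0.21, adjusted p = 0.98 by edgeR), and -0.13 (adjusted p = 0.471) in replicates 1 and 2. Inhba (ENSMUSG00000041324, chromosome 13 from 16011851 to 16031621) was counted with only 62 to 221 reads per library and ranged from 1.63 to 3.04 CPM in controls and from 1.79 to 4.36 CPM after exposure. At this depth its log2 fold change of 0.36 (standard error 0.38, 95% interval -0.52 to 1.25, adjusted p = 0.763 in edgeR's test) leaves room for changes of either sign, and APAP+IBU replicate 1 alone carried its positive sign, the value without it being -0.01. It was 0.65 (standard error 0.45, adjusted p = 0.314) in replicates 1 and 2. The ratio of Inha to Inhbb was 3.54, 3.32 and 2.58 in controls and 2.81, 2.27 and 2.83 after exposure (log2 difference -0.25, exact permutation p = 0.3, and -0.44 in replicates 1 and 2).

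Id1 and Id3 had the widest spread among controls of the 10 genes. Id1 (ENSMUSG00000042745, chromosome 2 from 152736251 to 152737410) had 59.4, 39.4 and 19.9 CPM in control replicates 1, 2 and 3 and 25.8, 24.5 and 33 CPM in APAP+IBU replicates 1, 2 and 3. The 3 exposed libraries lay between the lowest and the second control, and the highest control was 2.99 times the lowest. Over all 6 libraries the log2 fold change was -0.51 (standard error 0.35, 95% interval -1.32 to 0.30, adjusted p = 0.699 in edgeR's test). With replicates 1 and 2 only, Id1 fell by 0.95 on the log2 scale (standard error 0.19, adjusted p = 0.013), the largest change of the 10 genes in that fit.

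Id3 (ENSMUSG00000007872, chromosome 4 from 136143497 to 136145755) followed the same order, with 133, 101 and 51.1 CPM in controls and 76.4, 71.9 and 98.9 CPM after exposure. All exposed values again fell inside the control range. The log2 fold change was -0.20 (standard error 0.31, 95% interval -0.93 to 0.52, adjusted p = 0.828 in edgeR's test) over all libraries, and with replicates 1 and 2 only Id3 fell by 0.64 (standard error 0.14, adjusted p = 0.0169). Id3 over Id1 within a library, per kb, was 1.45, 1.66 and 1.67 in controls and 1.92, 1.90 and 1.94 after exposure. Every exposed ratio was thus above every control ratio, by 0.27 in mean log2 (exact two-sided permutation p = 0.1, the smallest possible, and 0.35 after adjustment over 7 ratios), and by 0.20 (exact permutation p = 0.1) after the correction described next. Without replicate 3 of either group it was higher by 0.30. Endothelial cells also express both Id genes. The list of 10 endothelial genes summed to 562, 573 and 591 CPM in controls and 526, 466 and 537 CPM after exposure. Every exposed sum thus lay below every control sum. Of its genes, 1 was wholly lower (Tek, 23.2 to 27.5 CPM in controls and 18.8 to 23 CPM after exposure) and 0 wholly higher. The part of endothelial cells in the Id values was not tested.

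In the fit of replicates 1 and 2, 4 of the 10 genes thus passed: Bmpr1a was higher, and Inha, Id1 and Id3 were lower. The same fit called 27.2% of all 20633 genes tested, 14.2% higher and 12.9% lower, so that 4 of 10 is to be read against a background of 27.2%. The groups of replicates 1 and 2 did not overlap in 7 of the 10 genes, and in 68.8% of all tested genes.

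The libraries differed along gene length and base composition, and several of the 10 genes moved with this. Of all tested genes, 5644 were shorter than the median of 3613 bases and above the median GC content of 49.4%, and their median deviation in log2 CPM from the gene's own mean was 0.29, 0.19 and -0.21 in replicates 1, 2 and 3 of the controls, against -0.18, -0.13 and 0.07 in those of the exposed group. The 5644 long and GC-poor genes deviated by -0.24, -0.13 and 0.16 in controls and 0.14, 0.10 and -0.02 after exposure. Id1 (1160 bases, 54.7% GC), Inha (1475 bases, 59.7%) and Id3 (1791 bases, 55.6%) were the shortest of the 10 and belonged to the first class, as did Bmp2 and Bmp4. Bmpr1a (6351 bases, 41.3%), Bmpr1b and Inhba belonged to the second. Id1, Inha and Id3 were highest in control replicate 1 and lowest in control replicate 3, and Bmpr1a was highest in control replicate 3 and lowest in control replicate 1. Bmp7 and Inhbb were in neither class, and Bmp2 did not follow its class: it was highest in APAP+IBU replicate 2 and lowest in APAP+IBU replicate 3.

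Correcting each library for gene length and GC content narrowed the spread among controls for all 10 genes. Over the 3 controls the SD of log2 CPM went from 0.65 to 0.16 for Inha, from 0.41 to 0.016 for Inhbb, from 0.30 to 0.063 for Bmpr1a, from 0.80 to 0.51 for Id1 and from 0.71 to 0.44 for Id3. The range over all 6 libraries became smaller in 8 genes and larger in Bmp2 and Bmp7. After the correction, the log2 fold change over all 6 libraries was -0.16 for Id1, 0.06 for Id3, 0.08 for Inha and -0.11 for Bmpr1a, and none of the 10 genes was called. In replicates 1 and 2 with the correction, 0 of the 10 genes were called, against 13.1% of all tested genes. There Id1 had a log2 fold change of -0.42 (adjusted p = 0.118 in edgeR's test), Id3 one of -0.19 (adjusted p = 0.339), Inha one of 0.09 (adjusted p = 0.717) and Bmpr1a one of -0.04 (adjusted p = 0.797). The correction takes out of each library whatever varies with length and GC content, a difference between the groups included, and so the 2 cannot be told apart here.

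**Figure D3:**
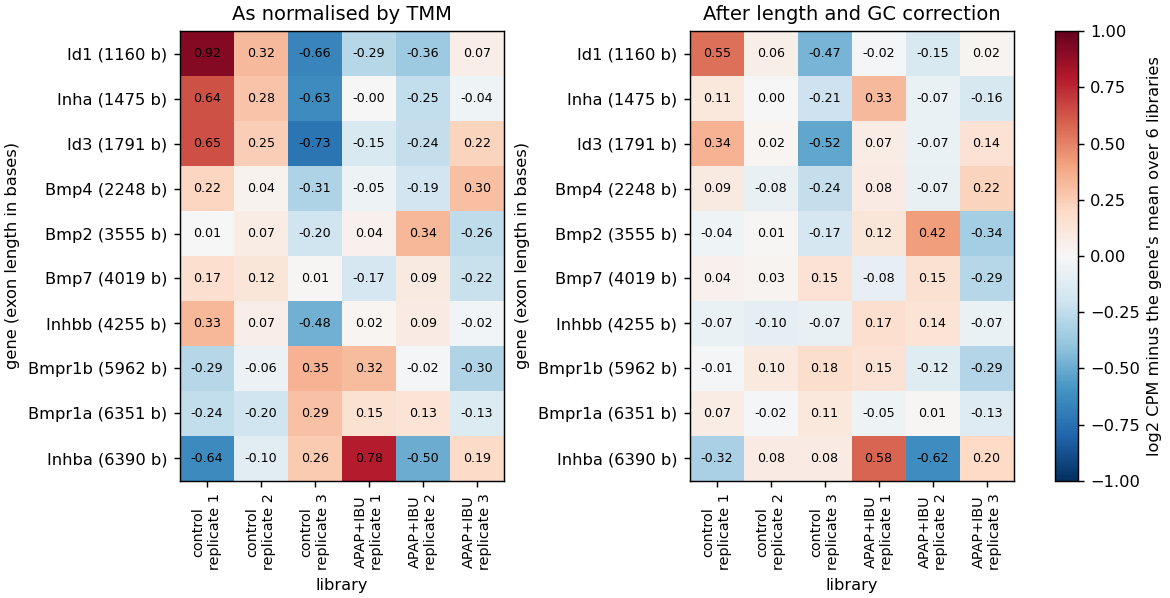
Deviation of each gene's log2 CPM from its mean over the 6 libraries (colour and printed number), with genes ordered from short to long exon length, before (left) and after (right) correction for length and GC content. On the left the 3 shortest genes are highest in control replicate 1 and lowest in control replicate 3, and Bmpr1a is the reverse; on the right most cells are paler (Bmp2 and Bmp7 span a wider range), and Id1 and Id3 keep the widest spread among controls.

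**Figure D4:**
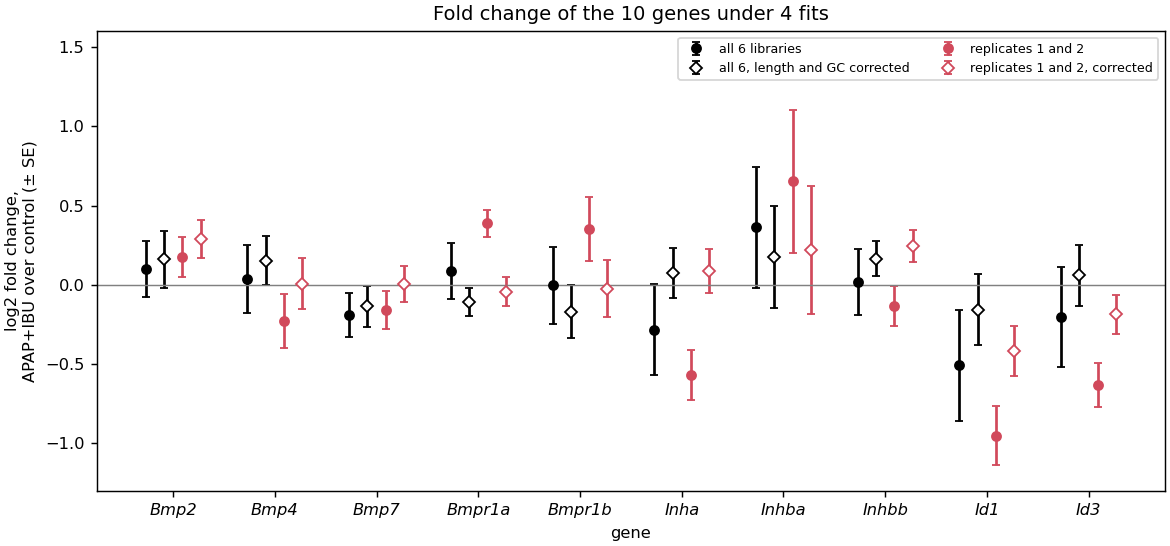
Log2 fold change of APAP+IBU over control (± standard error) for each gene in 4 fits: all 6 libraries (black) or replicates 1 and 2 (red), as normalised (filled circles) or after length and GC correction (open diamonds). The red circles of Bmpr1a (0.39), Inha (-0.57), Id1 (-0.95) and Id3 (-0.64) lie farthest from 0 relative to their error, and the diamonds of Bmpr1a and Inha lie near 0.

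The wider pathway was read from a list of 71 ligands, receptors, antagonists, SMADs and responsive genes that includes the 10, of which 65 were tested. With all 6 libraries edgeR called 0 of the 65 at an adjusted p under 0.05, and DESeq2 also called 0. At an unadjusted p under 0.05, 1 was higher and 1 was lower, beside 6.22% of all tested genes. The median log2 fold change of the 65 was -0.08, with 30 above and 35 below 0, and 2 genes lay wholly higher and 2 wholly lower after exposure, beside 4.78% and 5.92% of all tested genes. Of the 10 BMP-responsive genes, 9 had a negative log2 fold change, the median being -0.28; with length and GC correction 8 were negative and the median was -0.11, beside -0.01 over all tested genes in either fit.

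Bmper, an extracellular BMP-binding protein, had the smallest unadjusted p of the list. It had 16, 18.1 and 15.7 CPM in controls and 11.2, 11.8 and 8.9 CPM after exposure, so all exposed libraries lay below all controls. Its log2 fold change was -0.64 (standard error 0.17, unadjusted p = 0.00659, adjusted p = 0.551 in edgeR's test) over all libraries. In replicates 1 and 2 Bmper fell by 0.55 (adjusted p = 0.0356), and with the correction it fell by 0.54 (adjusted p = 0.0445).

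Acvr2b, a type II receptor of activins and some BMPs, had 7.74, 7.77 and 7.19 CPM in controls and 9.52, 10.9 and 11.6 CPM after exposure, again without overlap, and its log2 fold change was 0.50 (standard error 0.17, unadjusted p = 0.0201, adjusted p = 0.692 in edgeR's test), or 0.42 (adjusted p = 0.114) in replicates 1 and 2. Acvr1c, a type I receptor, was at 1.04 to 1.41 CPM in controls and 1.49 to 2.88 CPM after exposure (log2 fold change 0.75, adjusted p = 0.692 in edgeR's test; 0.91, adjusted p = 0.134, in replicates 1 and 2). The BMP ligand Gdf6 was at 7.98 to 11.5 CPM in controls and 7.24 to 7.75 CPM after exposure (-0.32, adjusted p = 0.698 in edgeR's test; -0.35, adjusted p = 0.273, in replicates 1 and 2). Bmper, Acvr2b, Acvr1c and Gdf6 are the 4 of 65 counted above whose groups did not overlap, a share no greater than among all tested genes, and none passed the adjusted test with all 6 libraries.

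The antagonist Nbl1 had 49.5, 50.5 and 25.4 CPM in controls and 29.4, 26.7 and 34.3 CPM after exposure, so that control replicates 1 and 2 were the highest libraries and control replicate 3 the lowest. Its log2 fold change of -0.47 (adjusted p = 0.692 in edgeR's test) became -0.81 (adjusted p = 0.00632) with replicates 1 and 2 and -0.20 (adjusted p = 0.361) there with the correction. The antagonists Chrdl1 (log2 fold change 0.97, standard error 0.49) and Grem1 (1.38, standard error 0.79) stood apart in 1 library, APAP+IBU replicate 1, with 8.40 CPM of Chrdl1 against 2.34 and 2.86 in the other exposed libraries and 1.87 CPM of Grem1 against 0.284 and 0.338. Their log2 fold changes in replicates 1 and 2 were 1.43 (adjusted p = 0.0948 in edgeR's test) and 2.20 (adjusted p = 0.109). Fst, which binds activin, had 105 to 130 CPM in controls and 122 to 149 CPM after exposure (log2 fold change 0.21 ± 0.13 standard error, edgeR's adjusted p = 0.698; 0.23, adjusted p = 0.169, in replicates 1 and 2).

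For the type II receptors Bmpr2 and Acvr2a, as for Bmpr1a, control replicate 3 was the highest control and APAP+IBU replicate 3 the lowest exposed library. Bmpr2 had 73.4, 97.5 and 118 CPM in controls and 145, 132 and 87.3 CPM after exposure, and Acvr2a had 28.5, 33.2 and 53.3 CPM against 55.7, 46.6 and 39.5 CPM. Over all libraries their log2 fold changes were 0.34 and 0.30 (adjusted p = 0.699 and 0.716 in edgeR's test). With replicates 1 and 2 Bmpr2 rose by 0.72 (adjusted p = 0.0132) and Acvr2a by 0.75 (adjusted p = 0.0105), but with the correction the values were 0.14 (adjusted p = 0.384) and 0.26 (adjusted p = 0.13). Smad4, the shared partner of the receptor-activated SMADs, was at 82.9 to 102 CPM in controls and 99.5 to 110 CPM after exposure (0.20, adjusted p = 0.698); with replicates 1 and 2 it rose by 0.33 both without (adjusted p = 0.0439 in edgeR's test) and with the correction (adjusted p = 0.0473). The type I receptor Acvr1 had 31.8 to 39.2 CPM in controls and 29.5 to 32.4 CPM after exposure (-0.16, adjusted p = 0.722 in edgeR's test; -0.08, adjusted p = 0.659, in replicates 1 and 2).

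In the fit of replicates 1 and 2 of each group, 9 pathway genes were called higher and 12 lower of 65, beside the background of 14.2% and 12.9%. Higher were Acvr2a, Bmp15, Bmpr1a, Bmpr2, Skil, Smad3, Smad4, Smad5 and Smurf2, and lower were Acvrl1, Atoh8, Bmper, Eng, Gata2, Id1, Id3, Inha, Msx2, Nbl1, Rgma and Smad6. With the length and GC correction 3 were called higher (Smad3, Smad4 and Smurf2) and 3 lower (Bambi, Bmper and Rgma), beside 13.1% of all genes; none of the 10 members was among them.

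**Figure D5:**
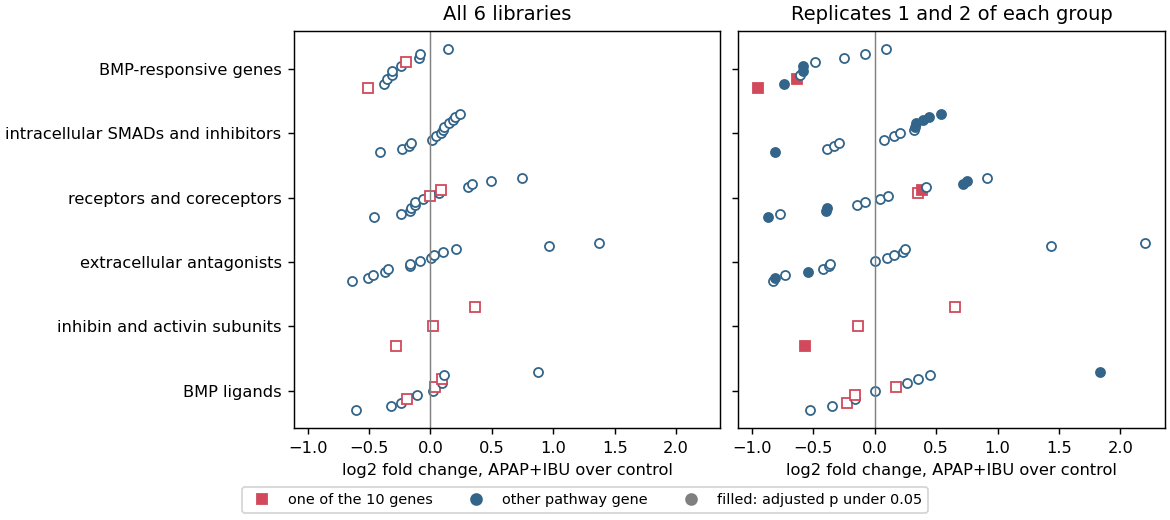
Log2 fold change of APAP+IBU over control for the 65 tested pathway genes by role, with all 6 libraries (left) and with replicates 1 and 2 of each group (right); red squares are the 10 genes described and filled symbols have an adjusted p under 0.05. No symbol is filled on the left, and 21 are filled on the right.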

How the data were processed

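The authors prepared stranded libraries of polyadenylated RNA, mapped reads to mm10 with TopHat2 2.0.14 and Bowtie2 2.1.0, counted them with HTSeq 0.6.1 on Ensembl release 86 genes and deposited raw counts; the strand setting is not given in the sources used here. Opposite-strand genes that share exon bases with a member (89 with Bmp4, 290 with Bmpr1a) hold at most 4 reads per library. Groups follow the exposure label, which names both drugs, while the exposed titles name ibuprofen alone. Symbols, positions (GRCm38) and exon lengths came from GENCODE M21, and promoter windows from RefSeq. Counts were tested with edgeR 4.0.16 (R 4.3.3; TMM, its expression filter, quasi-likelihood test, Benjamini-Hochberg adjustment over all genes); DESeq2 1.42.0 was an alternative. The length and GC correction was a loess fit (span 0.3) per library. The code was tested on simulated data. Members, lists and alternatives were chosen with earlier results of these data known. Pathway genes given with values are 12: the 8 with the smallest p and 6 preset partners of the members, which overlap; other names were chosen after their values were seen. No pair of libraries of the same group agreed within sampling noise.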

Additional observations from a re-analysis of the deposited data

How the results depend on the processing

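For the 10 genes, 0 calls held under every alternative that kept at least 5 libraries; replicates 1 and 2 of each group gave 4, and 4 with DESeq2. The pathway list had 0 calls, but 21 in replicates 1 and 2 (25 by DESeq2 and 6 after length and GC correction), and 0 to 2 with one library left out; the 2 (Skil and Nbl1) came without control replicate 3. Over all tested genes the 0 calls became 192 with DESeq2, 120 with all genes of at least 1 count, 2 with the replicate block, 34 with the replicate block and the length and GC correction, 0 to 1064 with one library left out (the most without control replicate 3), and 5607 in replicates 1 and 2 (5832 by DESeq2, 2709 after correction). The cause was not tested. Groups not overlapping went from 0 to 7 genes with replicates 1 and 2. The replicate numbers did not pair the libraries (their deviations correlated at -0.07, -0.02 and -0.04), and no control library correlated best with its own number; the block changed no call among the 10.

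Signs that changed from the fit of all 6 libraries belong to uncalled values. Bmpr1a, Inha and Id3 were called in replicates 1 and 2, however, and had the other sign in some of the fits below. Bmpr1b went from -0.0040 to 0.0020 (DESeq2), 0.0010 (DESeq2 size factors), 0.031 (total counts), 0.0090 (all genes), 0.35 (replicates 1 and 2) and 0.34 (the same libraries, DESeq2). Inhbb was -0.0070 with upper quartile scaling, -0.13 in replicates 1 and 2 and -0.14 in these by DESeq2, and Bmp4 was -0.23 and -0.24 in those 2 fits. With the correction Bmpr1a was -0.11, Inha 0.075 and Id3 0.06; with block and correction they were -0.11, 0.067 and 0.10; with replicates 1 and 2 and the correction Bmpr1a was -0.043, Inha 0.087 and Bmp7 0.0070. Leaving out one library gave -0.074 to 0.21 for Bmp2, -0.14 to 0.16 for Bmp4, -0.0090 to 0.28 for Bmpr1a, -0.19 to 0.19 for Bmpr1b, -0.57 to 0.0080 for Inha, -0.01 to 0.62 for Inhba, -0.18 to 0.21 for Inhbb, -0.83 to -0.09 for Id1 and -0.50 to 0.12 for Id3; the values of Inha, Id1 and Id3 nearest to or above 0 came without control replicate 1. With 3 libraries per group, intervals cover the spread between these pools only.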
